A study of Mus musculus with 50 samples.

Results

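The 7 glucocorticoid-responsive genes Fkbp5, Tsc22d3, Sgk1, Zbtb16, Per1, Cdkn1a and Pdk4, were followed across 50 RNA-seq libraries of mouse thyroid as a sign of systemic stress after Notch-blocking antibodies. The genes were chosen by name, with earlier results of these data known. All 7 were found among the 52636 genes of the count table by matching Ensembl IDs to symbols. The mice were male C57BL/6, aged 10 to 14 weeks per the sample labels and 10 to 12 weeks per the series text. Each mouse received 1 intraperitoneal dose of antibody. The control was an anti-ragweed isotype antibody (RW) at 40 mg/kg. Antibodies to the Notch ligands Jag1 and Jag2 were combined (aJ1aJ2), each dosed with 20 mg/kg. The pair anti-Notch1 and anti-Notch2 (aN1aN2) was given at 5 and 10 mg/kg, and the combination with anti-Notch3 (aN1aN2aN3) at 5, 10 and 20 mg/kg. RW, aJ1aJ2 and aN1aN2 thyroids were taken after 15 hours and after 5 days. At 7 days there were 2 sets, a first set of RW and aJ1aJ2 and a second set of aJ1aJ2 and aN1aN2aN3. Each of the 10 groups held 5 libraries. The second set has no RW group here, so aN1aN2aN3 was compared with aJ1aJ2 alone. The series text also mentions thyroid hormone injections, and the labels do not tell whether mice of these groups were injected. No label says whether the 5 libraries of a group came from separate mice, so p-values measure the spread between these libraries.

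Glucocorticoids from the adrenal cortex bind the glucocorticoid receptor, encoded by Nr3c1. The hormone-bound receptor moves to the nucleus and activates genes through paired hexamers in DNA, and stress, fasting and the time of day all set the circulating level. Fkbp5 (ENSMUSG00000024222) encodes a co-chaperone that lowers the affinity of the receptor for hormone and is itself induced, in a negative feedback loop. Tsc22d3 (ENSMUSG00000031431) encodes the anti-inflammatory leucine zipper protein GILZ. Sgk1 (ENSMUSG00000019970) encodes the serum- and glucocorticoid-regulated kinase, which acts on ion transport and cell survival. Zbtb16 (ENSMUSG00000066687) encodes the zinc finger transcription factor PLZF. The other genes answer to further signals as well: Per1 (ENSMUSG00000020893) encodes a repressor of the circadian clock, Cdkn1a (ENSMUSG00000023067) the cell cycle inhibitor p21, which p53 also induces, and Pdk4 (ENSMUSG00000019577) a kinase that shuts off pyruvate dehydrogenase and rises in fasting and in working muscle.

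Promoter sequences, from 250 bases before to 50 after a start site, were taken from RefSeq on build GRCm38.p6 and were present for 6 of the 7 genes, with 15 entries in all. A few are printed because they hold the motifs searched, on either strand: the hexamer AGAACA of the glucocorticoid receptor, read on the other strand as TGTTCT, the E-box CACGTG bound by clock proteins, and the cyclic AMP element TGACGTCA. Bases in capitals are matches to these motifs. Positions count back from the start site. The Sgk1 window is chr10:21993640-21993939 (plus strand), that of Tsc22d3 chrX:140600473-140600772 (minus strand), that of Per1 chr11:69098699-69098998 (plus strand) and that of Fkbp5 chr17:28486100-28486399 (minus strand).
Sgk1: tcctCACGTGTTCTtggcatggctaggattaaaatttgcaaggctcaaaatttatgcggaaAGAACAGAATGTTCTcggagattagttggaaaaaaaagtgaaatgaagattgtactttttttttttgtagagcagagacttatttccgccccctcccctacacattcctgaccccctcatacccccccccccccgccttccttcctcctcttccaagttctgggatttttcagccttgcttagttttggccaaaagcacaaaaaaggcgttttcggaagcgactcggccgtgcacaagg
Tsc22d3: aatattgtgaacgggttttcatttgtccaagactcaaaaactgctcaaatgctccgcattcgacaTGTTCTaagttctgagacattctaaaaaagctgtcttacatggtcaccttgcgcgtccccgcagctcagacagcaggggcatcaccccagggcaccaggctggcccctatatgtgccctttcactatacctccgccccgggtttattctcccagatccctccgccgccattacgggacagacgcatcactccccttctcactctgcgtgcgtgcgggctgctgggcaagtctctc
Per1: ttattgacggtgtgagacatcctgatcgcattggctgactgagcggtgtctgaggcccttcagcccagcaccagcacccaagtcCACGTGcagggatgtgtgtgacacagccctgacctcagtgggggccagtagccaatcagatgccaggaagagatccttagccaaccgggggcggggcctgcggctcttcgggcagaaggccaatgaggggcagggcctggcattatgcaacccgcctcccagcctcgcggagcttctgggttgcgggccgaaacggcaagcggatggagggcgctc
Fkbp5: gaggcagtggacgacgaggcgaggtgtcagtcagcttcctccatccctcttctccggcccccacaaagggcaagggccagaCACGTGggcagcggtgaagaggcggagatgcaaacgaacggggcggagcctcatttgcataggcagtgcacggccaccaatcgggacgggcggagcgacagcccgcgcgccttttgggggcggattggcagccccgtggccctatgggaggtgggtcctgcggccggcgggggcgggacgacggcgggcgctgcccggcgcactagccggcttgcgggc
The Sgk1 promoter holds AGAACA and TGTTCT 3 bases apart at position -189, which is chr10:21993701-21993715. Of 32851 promoters of the same length, 3 (0.00913%) hold the 2 hexamers in this arrangement. The same Sgk1 promoter has a further hexamer at -242 that overlaps an E-box at -246. The Tsc22d3 promoter has a hexamer at -185, and hexamers also lie in 2 other start regions of Sgk1, whereas 19.0% of all promoters hold at least 1. The E-box lies at -166 in the Per1 promoter and at -169 in the Fkbp5 promoter, and 7.15% of all promoters hold one. TGACGTCA was found in none of the 15 entries and in 1.79% of all promoters. These matches describe the letters in the windows and are not binding sites shown by the data.

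Library depth ranged from 15271242 to 52835846 counts. The thyroid label was checked against follicle markers: Tg, which encodes thyroglobulin, made up between 0.450% and 42.4% of the counts, and Pax8 was detected in all 50 libraries. Skeletal muscle markers (9 genes), which are foreign to thyroid follicles, made up 0.0433% to 14.9% of the counts. The second 7-day set stood apart, with follicle markers at 1.29% to 6.87% of the counts, against a group median of 22.2% to 38.8% in the other 8 groups, where single libraries went down to 0.455%. In bulk tissue, fewer cells of a type and less RNA per cell cannot be told apart. Levels are CPM, the counts of a gene relative to the library size, scaled by TMM over all 50 libraries. Fold changes are from edgeR's quasi-likelihood test within a time or set, with p-values adjusted by the Benjamini-Hochberg method over all genes tested and a threshold of 0.05.

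**Figure D1:**
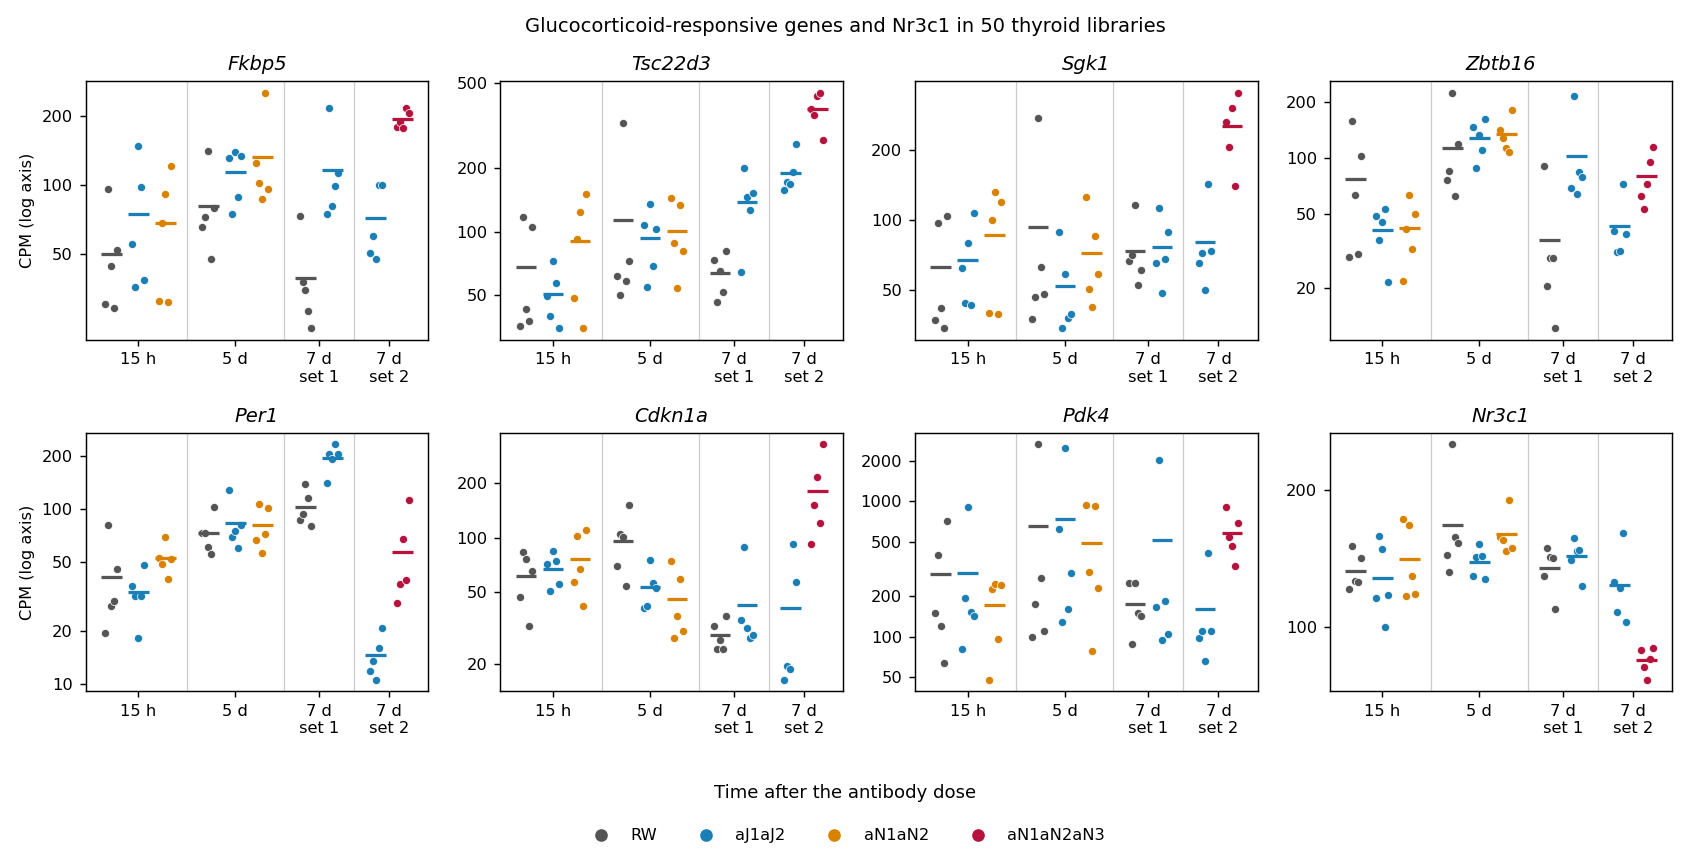
CPM of the 7 genes and of Nr3c1 on log axes, 1 point per library, with a bar at the mean of each group of 5, ordered by time and 7-day set. The aN1aN2aN3 libraries of the second set hold the highest group mean for Fkbp5, Tsc22d3, Sgk1 and Cdkn1a and the lowest for Nr3c1, and the aJ1aJ2 libraries of that set hold the lowest for Per1.

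All 7 genes were expressed in every library, and each varied at least 10.1-fold between its lowest and its highest library. Pdk4 had the widest range, from 48.3 CPM after aN1aN2 at 15 hours to 2632 CPM in 1 RW library at 5 days. On the scale per gene length (FPKM), Pdk4 had the highest level of the 7 genes in 44 of 50 libraries and Zbtb16 the lowest in 35. After aN1aN2aN3 the mean levels were 50.3 FPKM for Pdk4, 20.7 for Cdkn1a, 6.83 for Tsc22d3, 4.31 for Per1, 2.38 for Sgk1, 1.81 for Fkbp5 and 0.488 for Zbtb16. Mean Fkbp5 levels ran from 39.5 CPM in RW of the first 7-day set to 193 CPM after aN1aN2aN3. Mean Tsc22d3 levels ran from 51.0 CPM after aJ1aJ2 at 15 hours to 378 CPM after aN1aN2aN3. The group means of Fkbp5 formed a gradual order in which all 9 pairs of neighbours overlapped and differed by no more than 1 SD. The same held for Zbtb16, Cdkn1a and Pdk4. In the order of Tsc22d3 the only neighbours without overlap were the 2 groups of the second 7-day set, and in that of Per1 they were the 2 groups of the first. Sgk1 had no neighbours without overlap, although aN1aN2aN3 at 252 CPM stood well above the next mean, 93.6 CPM in RW at 5 days.

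All 7 genes rose after aN1aN2aN3 relative to aJ1aJ2 in the second 7-day set. Of the 18450 genes tested there, 9.19% were higher by the same rule. The median change of the 7 genes was 1.61 on the log2 scale, between 0.85 for Zbtb16 and 2.12 for Cdkn1a, whereas the median of all genes was -0.07. This comparison has no RW group, so whether aN1aN2aN3 libraries were high or aJ1aJ2 libraries low was described only by placing both against the other 40 libraries, which belong to other times or another set.

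Fkbp5, the receptor co-chaperone, was measured at 179, 189, 177, 216 and 205 CPM in the 5 aN1aN2aN3 libraries and at 50.4, 59.6, 47.6, 100.1 and 99.9 CPM in the 5 aJ1aJ2 libraries. The groups did not overlap. The change was 1.40 (SE 0.23, edgeR adjusted p = 0.00300). All 5 aN1aN2aN3 values exceeded 38 of the 40 libraries outside the set, while the aJ1aJ2 values lay within their range. Tsc22d3, which encodes GILZ, was measured at 379, 352, 436, 450 and 271 CPM after aN1aN2aN3 and at 157, 170, 168, 190 and 260 CPM after aJ1aJ2. These groups did not overlap either, and both lay high, since all 5 aJ1aJ2 values also exceeded 38 of the 40 other libraries. The change was 0.97 (SE 0.20, edgeR adjusted p = 0.00763).

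Sgk1 was measured at 263, 206, 302, 140 and 350 CPM after aN1aN2aN3 and at 65.6, 72.0, 50.3, 143 and 73.7 CPM after aJ1aJ2. One aJ1aJ2 library, replicate 4, reached into the range of the other group. The change was 1.61 (SE 0.31, edgeR adjusted p = 0.00580), and all aN1aN2aN3 values exceeded 39 of the 40 other libraries. Zbtb16, the zinc finger factor, was measured at 62.7, 53.5, 73.1, 95.1 and 115 CPM after aN1aN2aN3 and at 40.7, 31.6, 31.9, 72.5 and 39.1 CPM after aJ1aJ2. The groups overlapped through the same replicate 4. The change was 0.85 (SE 0.27, edgeR adjusted p = 0.0462), and the aN1aN2aN3 values fell within the range of the other 40 libraries, 3 above and 2 below their median of 73.0 CPM.

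Per1, the clock repressor, was measured at 29.0, 37.3, 67.0, 39.3 and 112 CPM after aN1aN2aN3 and at 11.8, 13.4, 10.6, 15.9 and 20.9 CPM after aJ1aJ2. The groups did not overlap, and here the aJ1aJ2 libraries were the unusual ones: 38 of the 40 libraries outside the set lay above the highest of them, whereas 4 of the 5 aN1aN2aN3 values lay below the median of those 40. The change was 1.94 (SE 0.36, edgeR adjusted p = 0.00502). Cdkn1a, which encodes p21, was measured at 92.4, 151, 215, 120 and 326 CPM after aN1aN2aN3 and at 16.5, 19.6, 18.9, 91.8 and 56.7 CPM after aJ1aJ2. The groups met at 92.4 and 91.8 CPM. All 5 aN1aN2aN3 values exceeded 35 of the 40 other libraries. The aJ1aJ2 replicates 1, 2 and 3 lay below all 40, whose lowest value was 24.3 CPM. The change was 2.12 (SE 0.56, edgeR adjusted p = 0.0253). Pdk4 was measured at 903, 546, 467, 332 and 696 CPM after aN1aN2aN3 and at 97.8, 111, 66.3, 417 and 110 CPM after aJ1aJ2. Only the aJ1aJ2 replicate 4 entered the upper range. All 5 aN1aN2aN3 values exceeded 31 of the 40 other libraries, and 4 of the 5 aJ1aJ2 values lay below their median of 179 CPM. The change was 1.84 (SE 0.50, edgeR adjusted p = 0.0259).

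On the scaling of the 10 libraries of this set, 3 of the 7 genes (Fkbp5, Tsc22d3 and Per1) were higher without overlap, beside 7.84% of all genes tested, and on the scaling over all 50 libraries Cdkn1a joined them. Leaving out each library in turn kept the calls of Fkbp5, Tsc22d3, Sgk1 and Per1 in all 10 fits. When all 50 libraries shared 1 fit, Tsc22d3 (edgeR adjusted p = 0.0720), Pdk4 (0.138) and Zbtb16 (0.131) lost their calls and the other 4 genes kept theirs. Zbtb16 also lost its call in both limma fits on log2 FPKM. Its change ran from 0.23 to 0.92 over the alternatives other than left-out libraries. With 1 library left out, Zbtb16 kept its call in 3 of 10 fits. It lost the call without aN1aN2aN3 replicate 3, 4 or 5 or aJ1aJ2 replicate 1, 2, 3 or 5 (edgeR adjusted p up to 0.115). Pdk4 lost it without aN1aN2aN3 replicate 5 or aJ1aJ2 replicate 1 or 2 (up to 0.0588), and Cdkn1a without aN1aN2aN3 replicate 3 or 5 or aJ1aJ2 replicate 3 (up to 0.0611). The aJ1aJ2 replicate 4 that overlapped the other group had 13.8% of its counts in muscle markers. Without it all 7 genes passed, and the change was 2.60 for Pdk4, 1.93 for Sgk1, 2.68 for Cdkn1a and 1.14 for Zbtb16.

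**Figure D2:**
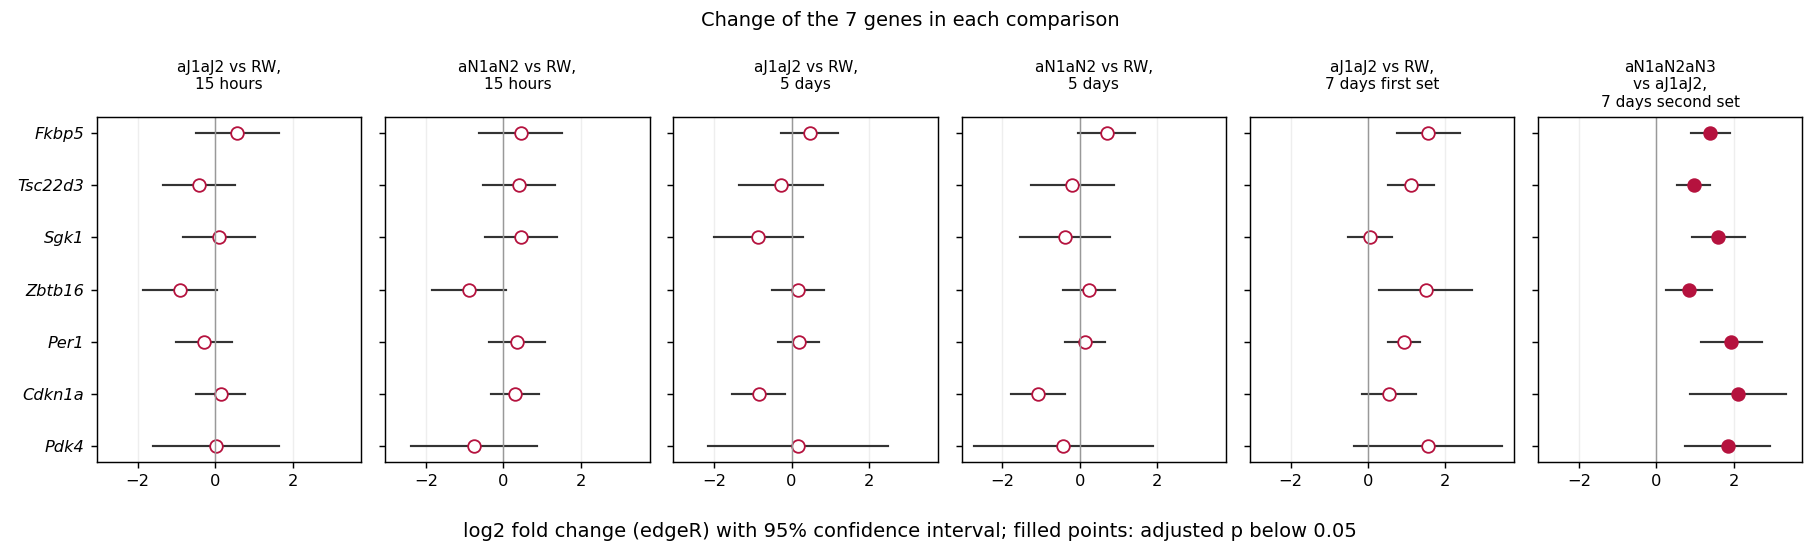
The log2 fold change of each of the 7 genes in the 6 comparisons, with 95% confidence intervals from edgeR. Filled points passed the adjusted p threshold of 0.05, which all 7 genes did in the second 7-day set and none did in the other 5 comparisons.

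Other glucocorticoid-induced genes (a list of 29) moved mostly the same way in the second set. Of the 29, 17 were higher and none was lower, beside 9.19% of all genes higher and 10.4% lower. The median change was 0.96. The list was chosen with earlier results of these data known, so it is not independent of them. The largest changes in the list were Ddit4, an inhibitor of mTOR signalling (2.73, SE 0.26, edgeR adjusted p = 0.000404), the transcription factor gene Cebpd (2.45, SE 0.35, adjusted p = 0.00172), the kinase gene Map3k6 (2.28, SE 0.45, adjusted p = 0.00773) and Errfi1, a feedback inhibitor of EGF receptor signalling (2.19, SE 0.42, adjusted p = 0.00590). Ddit4 was at 45.7, 51.7, 67.7, 48.9 and 93.3 CPM after aN1aN2aN3 and at 8.37, 6.31, 8.53, 13.8 and 8.32 CPM after aJ1aJ2, and the groups lay at both ends of the study: the mean after aJ1aJ2, 9.06 CPM, was the lowest of the 10 groups and the mean after aN1aN2aN3, 61.4 CPM, the highest, while the other 8 ran from 19.6 to 51.0 CPM. Klf15, Foxo3 and Zfp36, named after their values were seen, were also among the 17, at 1.66, 1.55 and 2.03.

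Nr3c1, which encodes the receptor itself, fell by 0.59 (SE 0.16, edgeR adjusted p = 0.0224). It was at 88.8, 81.7, 76.5, 84.8 and 89.8 CPM after aN1aN2aN3 and at 126, 108, 122, 161 and 102 CPM after aJ1aJ2. The groups did not overlap, and the 5 aN1aN2aN3 values were below all 40 libraries outside the set. Of the 13 genes of the receptor machinery that were tested, of 14 listed, none was higher and 3 were lower, beside 10.4% of all genes lower: Nr3c1, the receptor co-chaperone gene Fkbp4 (-0.72, adjusted p = 0.0270) and the heat shock gene Hspa8 (-0.76, adjusted p = 0.0198). Hspa8 has near-identical copies in the genome, so its counts are uncertain. The close relatives of the 7 genes did not share their direction. Of 14 tested, 2 were higher (Pdk1 at 0.69 and Tsc22d4 at 0.56) and 3 were lower (Fkbp4, Sgk3 at -0.58 and Fkbp1a at -0.48, the last with near-identical copies). Beside them, 9.19% of all genes were higher and 10.4% lower.

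The other signals that act on Per1, Cdkn1a and Pdk4 were read from their own lists in the same comparison. Of all genes tested there, 9.19% were higher and 10.4% lower. Of 13 clock genes, 3 were higher (Npas2 at 2.22, Cry2 at 1.19 and Nr1d1 at 1.14) and none was lower, with a list median of 0.36. Of 14 p53 targets, 4 were higher, among them the stress-response gene Sesn2 (2.29), Btg2 (1.91) and the apoptosis gene Pmaip1 (1.86), and 1 was lower, Ccng1 (-1.31), with a list median of 0.02. Of 12 tested PPAR and fasting targets, 5 were higher, among them Acot1 (2.64, with its close paralog Acot2 at 0.80), and 1 was lower, the lipid droplet gene Plin2 (-1.11), with a list median of 0.20. Of 12 immediate early genes, which respond to acute stimulation including tissue handling, 4 were higher (Btg2, Junb at 1.83, Ier2 at 1.15 and Ier3 at 0.80) and none was lower. Their summed share was 0.0675% to 0.240% of counts after aN1aN2aN3 and 0.0428% to 0.0530% after aJ1aJ2, without overlap, and their part in the changes of the 7 genes was not tested.

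Tissue markers differed between the same groups, where 9.19% of all genes were higher and 10.4% lower. Of 9 adipocyte markers 6 were lower after aN1aN2aN3 and none was higher, and their summed share was 0.0470% to 0.225% of counts against 0.454% to 0.683% after aJ1aJ2, without overlap. Follicle markers made up 3.94% to 6.87% against 1.29% to 3.09%, also without overlap: Tg (1.31) and Pax8 (0.78) were higher and the iodide transporter gene Slc5a5 (-1.91) was lower, among 11 tested of 12. None of these markers was at 0 in a library except Slc26a4 in 4 libraries and Lep in 1. Of 6 parathyroid and C cell markers 1 was higher, the calcitonin gene Calca (1.06, edgeR adjusted p = 0.0259), and of 4 tested lymphocyte markers 1 was lower, the B cell gene Ms4a1 (-2.68, adjusted p = 0.0378). The part of these cell types in the changes of the 7 genes was not tested. Of the 9 muscle markers none passed the threshold. Their summed share was 0.793% to 3.97% (median 1.29%) after aN1aN2aN3 and 0.0433% to 13.8% (median 0.932%) after aJ1aJ2, so the groups overlapped. The fitted changes of all 9 were below 0 (median -1.64) although the median share was higher after aN1aN2aN3, with aJ1aJ2 replicate 4 at 13.8% and replicate 5 at 5.11%. With the muscle share as a covariate all 7 genes still passed, beside 12.5% of all genes, with changes from 0.87 for Zbtb16 to 2.33 for Cdkn1a.

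**Figure D3:**
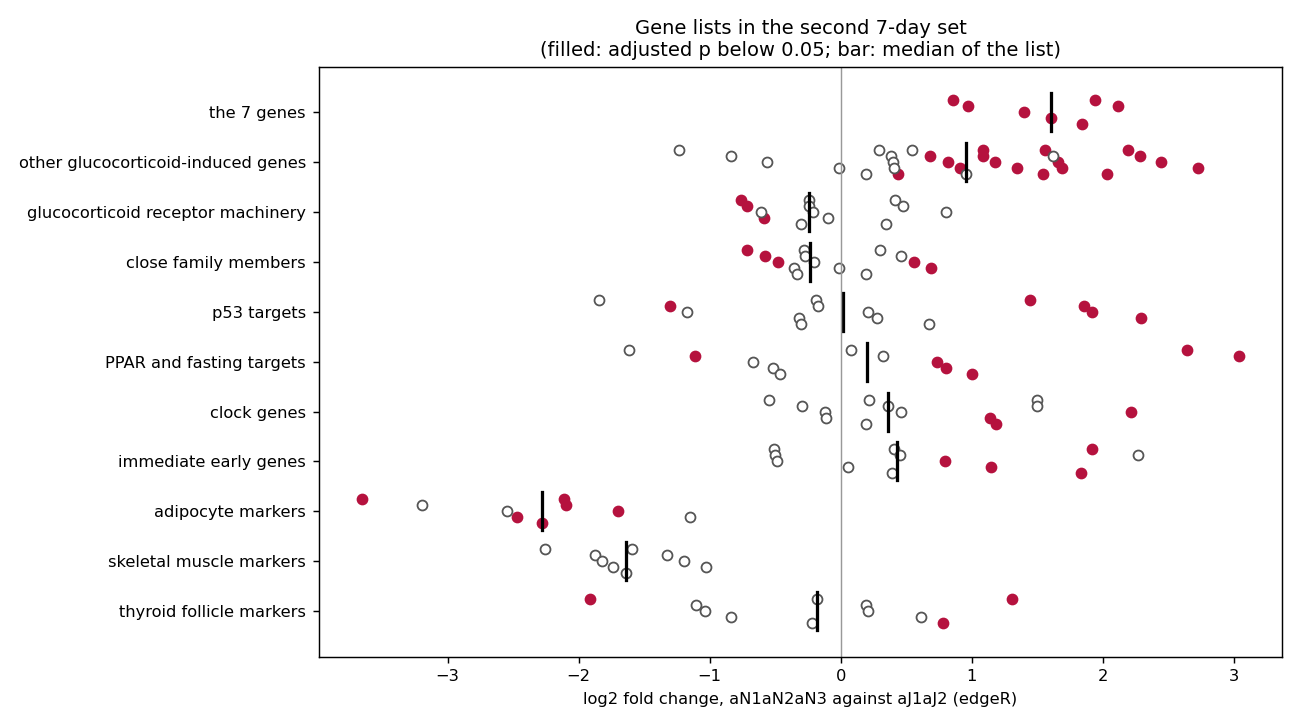
The log2 fold change of aN1aN2aN3 against aJ1aJ2 in the second 7-day set for each tested gene of 11 lists, 1 point per gene, filled where the adjusted p was below 0.05, with a bar at the median of each list. All 7 genes and 17 of 29 other glucocorticoid-induced genes lie to the right as filled points, while the receptor machinery has 3 filled points to the left and the adipocyte markers 6. Of all genes tested, 9.19% were higher and 10.4% lower.

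In the first 7-day set, where aJ1aJ2 can be compared with RW, all 7 genes were above 0, with a median change of 1.12 against 0.01 for all genes, but none passed the threshold, and neither did any of the 16954 genes tested (0%). At an unadjusted p below 0.05 there were 4 of the 7, beside 11.6% of all genes. Per1 was at 140, 206, 194, 234 and 207 CPM after aJ1aJ2 and at 86.4, 93.4, 138, 115 and 79.8 CPM after RW. The groups did not overlap, and the change was 0.93 (SE 0.19, edgeR adjusted p = 0.117). Fkbp5 was at 74.6, 216, 80.9, 98.7 and 112 CPM after aJ1aJ2 and at 73.1, 37.6, 34.7, 28.1 and 23.8 CPM after RW. These groups did not overlap either, the nearest values being 74.6 and 73.1 CPM, with a change of 1.56 (SE 0.37, adjusted p = 0.165). Groups of 5 in which the treated libraries were all higher were found for 1.61% of all genes.

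Tsc22d3 was at 64.4, 200.04, 145, 127 and 152 CPM after aJ1aJ2 and at 73.3, 46.5, 65.5, 51.7 and 80.7 CPM after RW, with overlap through 1 aJ1aJ2 library (1.12, SE 0.27, edgeR adjusted p = 0.166). Zbtb16 was at 69.6, 218, 64.1, 84.5 and 79.5 CPM after aJ1aJ2 and at 91.1, 20.7, 29.1, 29.2 and 12.3 CPM after RW, with overlap through RW replicate 1 (1.49, SE 0.54, edgeR adjusted p = 0.339). The changes of Sgk1 (0.06), Cdkn1a (0.55) and Pdk4 (1.56) had intervals that included 0. DESeq2 called 3 of the 7 genes higher, Per1 (adjusted p = 0.000547), Fkbp5 (adjusted p = 0.00290) and Tsc22d3 (adjusted p = 0.00765), beside 0.778% of all genes, and gave no adjusted p for Pdk4.

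One aJ1aJ2 library, replicate 2, had the highest value of the set for 5 of the 7 genes (Fkbp5, Tsc22d3, Zbtb16, Cdkn1a and Pdk4), with Pdk4 at 2029 CPM, and it also had the highest muscle marker share, 10.0% against at most 2.40% in RW. Without it the change was -0.36 for Pdk4, -0.12 for Sgk1 and 0.09 for Cdkn1a, while Per1 (0.91), Fkbp5 (1.21), Tsc22d3 (0.94) and Zbtb16 (1.02) stayed above 0. All 9 muscle markers were above 0 in this comparison (median 1.67) and none passed. With the muscle share as a covariate Per1 was at 0.85, Fkbp5 at 1.13 and Tsc22d3 at 0.95, none past the threshold, beside 0.0354% of all genes called. Of 28 tested other glucocorticoid-induced genes, 24 were above 0 with a median of 0.68, and none of them passed. Of the 13 clock genes 10 were above 0 (median 0.71), none passed, and 12 had an unadjusted p below 0.05. Named after their values were seen, the Per1 relative Per2 (1.25, edgeR adjusted p = 0.0997) and the clock gene Ciart (1.75, adjusted p = 0.0700) were the clock genes with the largest changes. The time of day of collection is not given in the labels. Nr3c1 was at 0.09 (SE 0.12, adjusted p = 0.763).

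At 15 hours none of the 7 genes passed after aJ1aJ2, beside 0.573% of 18513 genes, and none after aN1aN2, beside 1.68%. By DESeq2 there were also none, beside 1.45% and 4.05% of all genes, and by edgeR none had an unadjusted p below 0.05 in either comparison. Changes after aJ1aJ2 ran from -0.90 for Zbtb16 to 0.58 for Fkbp5, with a median of 0.02. Changes after aN1aN2 ran from -0.88 for Zbtb16 to 0.45 for Sgk1 and Fkbp5, with a median of 0.36. The RW libraries themselves were spread widely. Tsc22d3 in RW was at 36.0, 117, 43.4, 38.1 and 105 CPM, against 49.9, 40.1, 72.6, 57.3 and 35.3 CPM after aJ1aJ2 and 48.7, 92.1, 124, 35.2 and 150 CPM after aN1aN2. All 3 groups overlapped. The 2 high RW libraries, replicates 2 and 5, also had the highest RW values of Fkbp5, Sgk1, Zbtb16, Per1 and Pdk4. For Cdkn1a, RW replicate 3 (76.3 CPM) lay between them (83.7 and 65.6 CPM). The muscle marker shares of replicates 2 and 5 were 5.74% and 7.39%, against at most 0.962% in the other 3. Zbtb16 in RW was at 29.7, 159, 63.4, 30.6 and 103 CPM, with a mean of 77.1 CPM that only replicates 2 and 5 exceeded. All 5 aJ1aJ2 values (21.6 to 53.7 CPM) and all 5 aN1aN2 values (21.8 to 63.8 CPM) were below this mean, yet both groups overlapped RW. The changes were -0.90 (SE 0.45, edgeR adjusted p = 0.793) and -0.88 (SE 0.45, adjusted p = 0.396). Without RW replicate 2 they were -0.43 and -0.42. All 5 aN1aN2 values of Pdk4 were also below its RW mean. Both comparisons share the RW libraries. The aN1aN2 libraries at 15 hours also belong to another block of deposited FPKM scaling than RW and aJ1aJ2, so block and antibody cannot be told apart there.

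A few genes of the related lists passed at 15 hours. The liver enzyme gene Tat, a classical glucocorticoid target, was lower after aJ1aJ2 (-2.73, SE 0.55, edgeR adjusted p = 0.0392) and after aN1aN2 (-3.58, SE 0.58, adjusted p = 0.00601). Mean Tat levels at 15 hours were 2.78 CPM in RW, 0.415 CPM after aJ1aJ2 and 0.223 CPM after aN1aN2. Those of the first 7-day set were higher, 17.8 CPM in RW and 12.8 CPM after aJ1aJ2. At 5 days they were 0.301 CPM in RW, 0.708 CPM after aJ1aJ2 and 0.423 CPM after aN1aN2. In the second 7-day set they were 0.376 CPM after aJ1aJ2 and 1.24 CPM after aN1aN2aN3. The 15-hour RW mean was thus above those of the 5-day and second 7-day groups, RW at 5 days included. Single Tat values at 15 hours were 5.04, 3.73, 0.951, 2.99 and 1.16 CPM in RW and at most 0.526 CPM in the treated libraries. Of 7 liver transcripts 6 were lower after aJ1aJ2 and 7 after aN1aN2 in the same libraries, with a summed share of 0.00477% to 0.0262% of counts in RW, 0.000648% to 0.00209% after aJ1aJ2 and 0.000171% to 0.000272% after aN1aN2. The part of liver RNA in the Tat values was not tested. After aN1aN2 the acute-phase gene Lcn2 was higher (2.61, adjusted p = 0.0278), the clock genes Nr1d1 (-1.84), Nr1d2 (-1.13) and Dbp (-1.30) and the immediate early gene Junb (-1.75) were lower, and the chaperone genes Hspa8 (1.02), Hsp90aa1 (1.17) and Stip1 (0.52) of the receptor machinery were higher, the first 2 with near-identical copies. Per1 did not pass beside the other clock genes (0.36, SE 0.34, edgeR adjusted p = 0.677). Nr3c1 was at -0.06 after aJ1aJ2 and 0.08 after aN1aN2, with no call.

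At 5 days none of the 7 genes passed after aJ1aJ2, beside 0.179% of 18434 genes, or after aN1aN2, where no gene of the table did (0% by edgeR, 2.49% by DESeq2). Cdkn1a had the most even difference. It was at 70.0, 104, 101, 54.1 and 151 CPM after RW, at 41.1, 42.1, 75.3, 56.0 and 53.1 CPM after aJ1aJ2 and at 74.2, 28.1, 37.1, 59.1 and 30.4 CPM after aN1aN2. All 10 treated values were below the RW mean of 96.1 CPM, and both groups overlapped RW. The change was -0.85 (SE 0.32, edgeR adjusted p = 0.308) after aJ1aJ2 and -1.08 (SE 0.32, adjusted p = 0.250) after aN1aN2. Cdkn1a was the only member with an unadjusted p below 0.05 in either comparison, and 1 of 7 is near the share of all genes, 11.8% after aJ1aJ2 and 10.0% after aN1aN2. DESeq2 called Cdkn1a lower after aN1aN2 (adjusted p = 0.0490), beside 0.863% of all genes, and so did edgeR with the muscle share as a covariate (adjusted p = 0.0473), beside 3.12%. After aJ1aJ2 DESeq2 called none of the 7, beside 2.62%. Of the 14 p53 targets none passed at 5 days, and 11 and 13 of them were below 0 after aJ1aJ2 and aN1aN2. Their medians were -0.29 and -0.34, beside -0.06 and -0.07 for all genes. An unadjusted p below 0.05 was found for 1 and 2 of the 14, near the 11.8% and 10.0% of all genes. Other lists also lay mostly below 0: 11 and 12 of 12 immediate early genes, and 11 and 12 of 14 genes of the receptor machinery.

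Fkbp5 was at 65.5, 72.2, 141, 47.7 and 79.5 CPM after RW, at 131, 74.5, 139, 88.4 and 134 CPM after aJ1aJ2 and at 124, 102, 86.6, 252 and 96.0 CPM after aN1aN2. The groups overlapped (0.47, SE 0.34, edgeR adjusted p = 0.614, and 0.69, SE 0.34, adjusted p = 0.544). One RW library, replicate 3, held 0.450% Tg and 14.9% muscle markers and had Tsc22d3 at 324, Sgk1 at 273, Zbtb16 at 225 and Pdk4 at 2632 CPM, while the other 4 RW libraries were at 50.3 to 72.7 CPM for Tsc22d3 and 99.5 to 271 CPM for Pdk4. Without this library the aJ1aJ2 change of Pdk4 moved from 0.17 to 2.17, that of Tsc22d3 from -0.28 to 0.63 and that of Sgk1 from -0.85 to 0.10, and the aN1aN2 change of Pdk4 moved from -0.42 to 1.59, of Tsc22d3 from -0.19 to 0.71 and of Sgk1 from -0.38 to 0.56, none past the threshold. Per1 differed little between RW (55.2 to 103 CPM), aJ1aJ2 (59.4 to 129 CPM) and aN1aN2 (56.1 to 107 CPM), with intervals of -0.35 to 0.71 and -0.39 to 0.66. Of the 13 clock genes none passed after either antibody pair. In each comparison 8 had an unadjusted p below 0.05, beside 11.8% and 10% of all genes, with 9 above 0 and 4 below. Their medians were 0.71 after aJ1aJ2 and 0.75 after aN1aN2. Among other glucocorticoid-induced genes, Sult1a1, a sulfotransferase gene, was higher after aJ1aJ2 (1.05, SE 0.14, edgeR adjusted p = 0.00970), and none passed after aN1aN2. Nr3c1 was at -0.28 after aJ1aJ2 and -0.08 after aN1aN2, with no call.

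None of the 7 genes passed edgeR's test of a difference between antibodies or times. At 5 days the aN1aN2 effect minus the aJ1aJ2 effect ran from -0.59 for Pdk4 to 0.47 for Sgk1, beside 0% of all genes called. The change of the aJ1aJ2 effect from 15 hours to 5 days ran from -0.99 for Cdkn1a to 1.08 for Zbtb16 (0.418% of all genes called), and that of the aN1aN2 effect from -1.38 for Cdkn1a to 1.12 for Zbtb16 (2.15%). The aN1aN2 change includes the 15-hour aN1aN2 libraries, which lie in another block of FPKM scaling than their RW. Block and antibody cannot be told apart in it. From 15 hours to the first 7-day set the aJ1aJ2 effect on Zbtb16 moved by 2.40 (SE 0.61, edgeR adjusted p = 0.122), beside 0.121% of all genes called. Its call depended on the tool and on 1 library, since DESeq2 gave an adjusted p of 0.0249, beside 0.516% of all genes called, and leaving out RW replicate 1 of the 7-day set gave 3.07 (adjusted p = 0.00906). By unadjusted p, 3 of the 7 genes were under 0.05 in that contrast (Zbtb16, Per1 and Tsc22d3), beside 6.74% of all genes. In the change of the aN1aN2 effect it was 1 of 7 (Cdkn1a), near the 15.2% of all genes, and in the others 0. DESeq2 called none of the 7 in the contrast of antibodies at 5 days (0.409% of all genes called), in the aJ1aJ2 change to 5 days (2.36%) or in the aN1aN2 change (3.82%).

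Within groups the genes varied together from library to library, Per1 least of all. Correlations were computed on deviations of log2 CPM from the group mean over 50 libraries, for 21 pairs, with p-values from 100000 permutations within groups. The closest pairs were Sgk1 with Pdk4 (Pearson r = 0.77, Spearman rho = 0.76, permutation p = 1e-05 for both, the smallest these permutations can give, adjusted p = 3.5e-05) and Fkbp5 with Tsc22d3 (r = 0.76, rho = 0.78, permutation p = 1e-05 for both, adjusted p = 3.5e-05). Leaving out the 2 libraries farthest from the median gave r = 0.71 and r = 0.75. The least alike pair was Per1 with Pdk4 (r = 0.08, rho = 0.13, permutation p = 0.589 and 0.392, adjusted p = 0.589 and 0.392). By r, 18 of the 21 pairs passed after adjustment and by rho 17, and the pairs that did not all include Per1.

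The same deviations followed the share of skeletal muscle markers. For Pdk4, a gene of high level in muscle, r was 0.85 (rho = 0.84, permutation p = 1e-05 for both, adjusted p = 3e-05 and 3.5e-05 over 21 relations, r = 0.88 without the 2 libraries farthest from the median). Tsc22d3 (r = 0.75), Sgk1 (0.75), Fkbp5 (0.73), Zbtb16 (0.63) and Cdkn1a (0.55) followed it as well, with rho between 0.52 and 0.77 and permutation adjusted p-values of r up to 0.000966, and Per1 did not pass (r = 0.14, rho = 0.16, permutation adjusted p = 0.543 and 0.399). With follicle markers the signs were opposite, from r = -0.81 for Pdk4 to -0.39 for Cdkn1a, again without Per1 (0.06). With adipocyte markers r was between -0.12 and 0.28 and no gene passed. All these values come from the same libraries, so shares of one tissue and another are not independent.

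**Figure D4:**
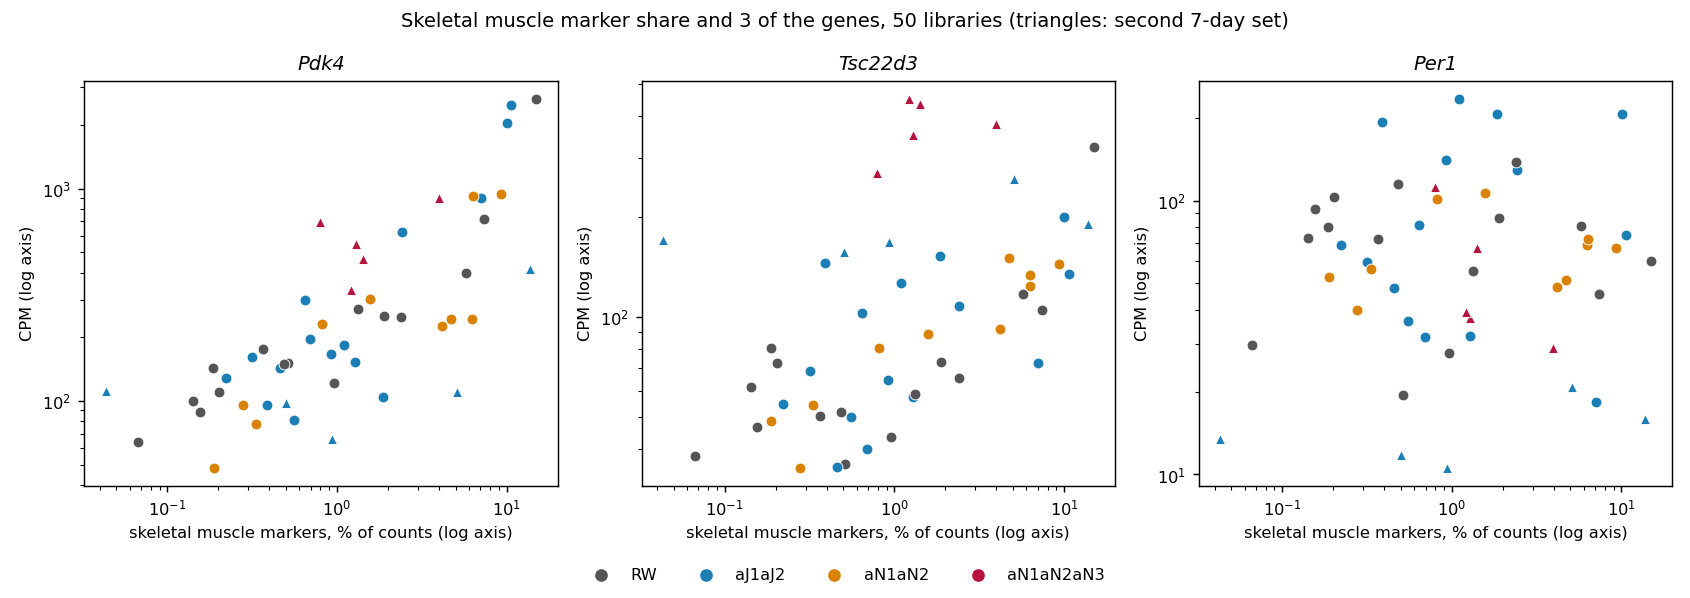
CPM of Pdk4, Tsc22d3 and Per1 against the percent of counts in 9 skeletal muscle markers, on log axes, 1 point per library, with triangles for the second 7-day set. Pdk4 climbs with the muscle share (within-group r = 0.85), Per1 does not (0.14), and the aN1aN2aN3 triangles lie above other libraries of like muscle share for Tsc22d3.

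Among 21546 genes, the ones whose within-group deviations were most like each member over the 50 libraries differed between the members. They were Frat2 (r = 0.80), Rcsd1 and Nog for Fkbp5, and Ankrd9 (0.88), Frat2 and the clock output gene Tef (0.87) for Tsc22d3. For Sgk1 they were the stress-response gene Gadd45g (0.90), Prr29 and Ube2f, and for Zbtb16 Extl3 (0.75), Gm37240 and Usp24. For Per1 the closest were Brpf1 (0.70), the cytokine-signalling inhibitor Socs3 (0.64) and Zfp629, for Cdkn1a Polg (0.78), Plcd1 and Rusc2, and for Pdk4 Lrpprc (0.94), Gpcpd1 and Pde4d. Outside the second set, over 40 libraries, r was 0.51 for Per1 with Brpf1 and 0.60 for Cdkn1a with Polg, lower than over all 50, and 0.95 for Pdk4 with Lrpprc.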

How the data were processed

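Gene counts of 50 libraries (total RNA from thyroid, sequenced as single-end reads of 50 bases per the labels' protocols) were used as the authors deposited them, as whole-number counts without normalization for 52636 genes. FPKM values, which the authors deposited in a second table, are those counts divided by gene length and a library factor, as found by comparing both tables. The library factor followed a different scaling in 2 blocks of libraries. GSNAP and limma are named in the submitters' processing notes; how reads were counted, and on which genome build, is not given in the sources used here. Symbols were matched by Ensembl ID for 52403 genes, and 233 had none.

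The members and the gene lists were chosen with earlier results of these data known. Each time or set was fitted in R 4.3.3 by edgeR 4.0.16, with libraries scaled by TMM and a robust quasi-likelihood test. Genes were kept by filterByExpr with both a minimum count of 10 in enough libraries and a minimum total of 15. All p-values were adjusted over all genes tested. The 15-hour, 5-day, first and second 7-day fits held 15, 15, 10 and 10 libraries. Changes over time came from 1 fit of all 50. Alternatives were DESeq2 1.42.0, other scaling, no filter, limma 3.58.1 on log2(FPKM + 0.1) and log2(FPKM + 1), other choices of libraries, a replicate block and the muscle marker share as a covariate. The script was tested on simulated data. Named genes were the 7 members and Nr3c1 in each comparison, up to 4 genes per list and comparison with the largest changes past the threshold, and the 3 genes most like each member. Depth was 15271242 to 52835846 counts.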

Additional observations from a re-analysis of the deposited data

Results flagged for a closer look

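In 16 of 70 sets of 5 libraries (7 genes in 10 groups) the highest library stood apart from the other 4. The rule was Dixon's ratio of gap to range on CPM, with a critical value of 0.71. It flags about 1 set in 20 among independent, normally distributed values. All 16 were the highest of their group, and the genes varied together across shared libraries, so the count cannot be set against that rate. The 16 values lay in 8 libraries, and 13 of them were in the library with the highest muscle marker share of its group. In RW replicate 3 at 5 days they were Tsc22d3 at 324, Sgk1 at 273 and Pdk4 at 2632 CPM. In aJ1aJ2 replicate 2 of the first 7-day set they were Fkbp5 at 216, Zbtb16 at 218, Cdkn1a at 88.5 and Pdk4 at 2029 CPM. In aJ1aJ2 replicate 4 of the second 7-day set they were Sgk1 at 143, Zbtb16 at 72.5 and Pdk4 at 417 CPM. Pdk4 also stood apart in aJ1aJ2 replicate 3 at 15 hours (904 CPM) and in aJ1aJ2 replicate 3 at 5 days (2491 CPM), and Sgk1 in RW replicate 3 of the first 7-day set (116 CPM). The 3 values outside such libraries were Fkbp5 at 252 CPM in aN1aN2 replicate 4 at 5 days, and Fkbp5 at 73.1 and Zbtb16 at 91.1 CPM in RW replicate 1 of the first 7-day set. The part of muscle tissue in these values was not tested.

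The fitted aJ1aJ2 change of Zbtb16 had opposite signs at 15 hours (-0.90) and in the first 7-day set (1.49), and neither passed. At 15 hours all 5 aJ1aJ2 libraries were below the RW mean, as were RW replicates 1, 3 and 4. In the first 7-day set all 5 aJ1aJ2 libraries were above the RW mean. The difference was 2.40 on the log2 scale (SE 0.61) and did not pass edgeR's test of the difference (adjusted p = 0.122).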

How the results depend on the processing

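Of the 7 genes in the second 7-day set, 4 passed when all 50 libraries shared 1 fit (Pdk4, Tsc22d3 and Zbtb16 did not), and 4 to 7 passed when 1 library was left out. Zbtb16 also did not pass in either limma fit on log2 FPKM, where the other genes did. DESeq2 called 1 gene (Cdkn1a) after aN1aN2 at 5 days, as did the muscle covariate, 3 genes after aJ1aJ2 in the first 7-day set, and 1 (Zbtb16) in its change from 15 hours. Leaving out 1 library gave 0 to 1 for that change, and the 1 came without RW replicate 1 of the first 7-day set.

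No label says whether the replicate numbers pair the libraries, and correlations of same-numbered deviations cannot settle it. They ran from -0.54 to 0.72. No comparison had all 5 over 0.1, and aN1aN2 at 15 hours and aJ1aJ2 at 5 days had 4 each. With the replicate block, changes that were not called took the other sign for Pdk4 after aJ1aJ2 at 15 hours (-0.12) and, after aN1aN2 at 5 days, for Tsc22d3 (0.24) and Pdk4 (0.96). With log2(FPKM + 0.1) the same held for Tsc22d3 after aJ1aJ2 (0.0439) and aN1aN2 (0.12) and for Pdk4 after aN1aN2 (0.34) at 5 days, and with log2(FPKM + 1) for Tsc22d3 (0.0246) and Pdk4 (0.31) after aN1aN2. With the muscle covariate it held for Sgk1 (-0.24) and Pdk4 (-0.35) after aJ1aJ2 in the first 7-day set. Apart from the left-out libraries, the cause was not tested.

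Leaving out 1 library also turned signs of changes that were not called. At 15 hours after aJ1aJ2 the ranges were -0.0841 to 0.38 for Sgk1, -0.41 to 0.14 for Per1 and -0.99 to 0.70 for Pdk4. At 5 days after aJ1aJ2 they were -0.47 to 0.63 for Tsc22d3, -1.13 to 0.10 for Sgk1, -0.039 to 0.33 for Per1 and -1.14 to 2.17 for Pdk4, and after aN1aN2 -0.38 to 0.71 for Tsc22d3, -0.68 to 0.56 for Sgk1 and -0.80 to 1.59 for Pdk4. Between the 2 antibodies at 5 days they were -0.15 to 0.34 for Fkbp5, -0.0799 to 0.27 for Tsc22d3, -0.0616 to 0.17 for Zbtb16, -0.17 to 0.18 for Per1 and -0.97 to 0.72 for Pdk4. In the first 7-day set they were -0.12 to 0.28 for Sgk1 and -0.36 to 1.83 for Pdk4. For the aJ1aJ2 change from 15 hours to 5 days they were -0.46 to 0.30 for Fkbp5, -0.15 to 0.98 for Tsc22d3 and -1.14 to 2.10 for Pdk4, and to the first 7-day set -0.29 to 0.20 for Sgk1, -0.0449 to 0.56 for Cdkn1a and -0.38 to 2.58 for Pdk4. For the aN1aN2 change from 15 hours to 5 days they were -0.12 to 0.56 for Fkbp5, -0.87 to 0.26 for Tsc22d3, -1.11 to 0.0671 for Sgk1 and -0.30 to 2.30 for Pdk4.

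The FPKM fits were not run at 15 hours, where the groups span both FPKM blocks. The second 7-day set has no RW group, so its changes cannot be assigned to either antibody.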
